A study of Mus musculus with 16 samples.

Results

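The genes described here are 10 members of the vascular endothelial growth factor (VEGF) axis and of the endothelial surface: the ligands *Vegfa* and *Pgf*, the receptors *Flt1*, *Kdr* and *Nrp1*, the angiopoietin receptor *Tek* and its partner *Tie1*, and the endothelial surface proteins encoded by *Pecam1*, *Cdh5* and *Emcn*. They were chosen by name, with earlier results of these data known, and all 10 were among the 55414 gene identifiers counted. RNA-Seq was performed in 16 cultures of chondrocyte-enriched cells from the limb epiphyses of newborn mice on a C57BL/6 background, 4 cultures in each of 4 groups. Cells came either from heterozygous *Notch2*tm1.1Ecan mice (Notch2 mutant), in which a stop codon ahead of the PEST domain gives a stable NOTCH2 and a gain of function in every tissue that expresses the gene, as in Hajdu Cheney syndrome, or from wild type littermates (control). Each genotype was exposed for 6 h to PBS (vehicle) or to tumor necrosis factor α (TNFα), a cytokine of inflamed joints, at 50 ng/ml, and males and females were pooled. The labels give removal of serum for the TNFα groups only, whereas the figure legends of the study give it for vehicle and TNFα alike. If the labels are right, a TNFα effect cannot be told apart from one of serum removal. The design asks whether TNFα changed these genes in each genotype, whether the genotype changed them with or without TNFα, and whether it changed the response to TNFα.

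Between 3439726 and 44237300 reads were counted on genes per library. *Notch2*, the mutated gene, does not check the genotype by its level, since the mutation changes the end of the coding sequence, and was 130 ± 19.7 CPM in control vehicle and 152 ± 13.5 CPM in Notch2 mutant vehicle cultures (SD, n = 4; CPM, counts scaled to a common library size). The Notch target *Heyl* was 0.232 ± 0.0617 and 1.95 ± 0.411 CPM in the same groups and was higher in the mutant by 3.04 on the log2 scale (edgeR quasi-likelihood test, adjusted p = 6.25e-07). With TNFα, *Notch2* was 156 CPM in control and 223 CPM in mutant cultures (log2 0.53, adjusted p = 0.0178, edgeR). This call was lost without mutant TNFα replicate 4 (adjusted p = 0.108). In mutant cells TNFα raised *Notch2* by 0.55 on the log2 scale (adjusted p = 1.45e-07, edgeR). Among the control libraries, vehicle replicate 4 lay between the treatments: on the first principal component it was at -17.2, whereas the other 7 vehicle libraries were between -53.1 and -50.7, and control TNFα replicate 4 was at 36.3 when the other TNFα libraries were between 47.6 and 51.5. *Icam1*, a gene induced by TNFα, was 34.4, 39.4 and 40.4 CPM in control vehicle replicates 1 to 3 and 439 CPM in replicate 4. Notch2 mutant TNFα replicate 4, the shallowest library, was at 31.4 on the second component, where the other mutant libraries were between 10.2 and 15.8, and without it 6 of 10 genes were called between genotypes with TNFα. Values without these libraries are given where leaving them out changed a call or moved a fold change by over 1.5 times.

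VEGFA is secreted by hypertrophic chondrocytes and draws blood vessels into the growth plate, whereas resting cartilage is avascular. It signals mainly through the receptor tyrosine kinase KDR (VEGFR2), while FLT1 (VEGFR1) binds VEGFA tightly with weak kinase activity and is also made as a soluble form that traps the ligand. Placental growth factor (PGF) binds FLT1 but not KDR, and NRP1 is a co-receptor shared by VEGFA and class 3 semaphorins. The angiopoietin receptors TEK (TIE2) and TIE1 keep vessels quiescent, and PECAM1, VE-cadherin (*Cdh5*) and endomucin (*Emcn*) are surface proteins of endothelial cells. *Flt1* is also expressed by monocytes and macrophages, and *Tek* by some macrophages and mesenchymal cells.

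The promoters of *Flt1*, *Tek* and *Vegfa* are shown because *Flt1* had the highest fold change with TNFα among the 10 genes, *Tek* passed the genotype test with and without TNFα, and *Vegfa* is the principal ligand. Each is the 250 bases upstream of the RefSeq start (GRCm38.p6), 5′ to 3′ on the strand of the gene, and capitals mark matches on either strand to an NF-κB motif or to the RBPJ core TGGGAA.
Flt1: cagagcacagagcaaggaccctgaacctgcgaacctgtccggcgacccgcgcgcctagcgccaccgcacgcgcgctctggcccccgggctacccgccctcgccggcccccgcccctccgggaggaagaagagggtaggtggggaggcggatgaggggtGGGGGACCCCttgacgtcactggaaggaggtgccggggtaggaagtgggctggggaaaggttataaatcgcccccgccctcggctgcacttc
Tek: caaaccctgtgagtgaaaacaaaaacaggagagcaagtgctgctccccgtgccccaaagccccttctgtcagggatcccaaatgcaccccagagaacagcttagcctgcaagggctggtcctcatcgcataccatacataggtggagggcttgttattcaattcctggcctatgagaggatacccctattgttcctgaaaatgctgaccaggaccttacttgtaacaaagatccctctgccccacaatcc
Vegfa: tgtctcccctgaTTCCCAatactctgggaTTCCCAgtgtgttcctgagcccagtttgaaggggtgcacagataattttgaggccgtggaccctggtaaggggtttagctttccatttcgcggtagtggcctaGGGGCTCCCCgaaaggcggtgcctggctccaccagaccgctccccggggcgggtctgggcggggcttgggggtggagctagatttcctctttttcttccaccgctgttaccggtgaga
The *Flt1* window was chr5:147726012-147726261 (minus strand), that of *Tek* chr4:94739039-94739288 (plus strand), and that of *Vegfa* chr17:46032378-46032627 (minus strand). In the *Flt1* window, 1 NF-κB match began 92 bases upstream of the start. The *Vegfa* window held an NF-κB match 118 bases upstream and RBPJ matches 238 and 221 bases upstream, and the *Tek* window held no match. Of the 8 genes with a RefSeq window, 3 had an NF-κB match (*Vegfa*, *Flt1* and *Kdr*), 3 had an RBPJ match (*Vegfa*, *Kdr* and *Tie1*), and 0 had the hypoxia response core ACGTG. For comparison, 3.9% of 32851 mouse windows of this length held the NF-κB motif, 21.6% the RBPJ core and 16.6% the hypoxia core. These are letters in a window and not measured binding.

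Per exon length, the ligand *Vegfa* was the most abundant of the 10 transcripts in every group, at 23.5 ± 2.03, 23.9 ± 0.67, 24.6 ± 3.04 and 19.8 ± 0.278 CPM per kilobase in control vehicle, Notch2 mutant vehicle, control TNFα and Notch2 mutant TNFα cultures. *Nrp1* came next, at 10.6 ± 0.65, 11.7 ± 0.298, 7.86 ± 0.958 and 10.8 ± 0.515 on the same scale, and its range did not overlap that of *Vegfa* or of the gene below it in any group. With vehicle, *Tek* followed, at 0.946 ± 0.0755 in control and 2.07 ± 0.27 in mutant cultures, and *Pgf* and *Flt1* were below it with ranges that overlapped. With TNFα, *Flt1* came after *Nrp1*, at 2.17 ± 0.181 in control and 5.63 ± 0.219 in mutant cultures, above *Tek* at 1.31 ± 0.149 and 2.55 ± 0.315, with no overlap between neighbors from *Vegfa* to *Pgf*. The order of neighbors among *Pecam1*, *Cdh5*, *Tie1*, *Kdr* and *Emcn* was not resolved, since each overlapped the next in every group. The lowest *Cdh5* value was nevertheless above the highest of *Kdr* and of *Emcn* in every group but control vehicle. The group means of these genes lay between 0.0264 and 0.367 on this scale. Soluble and membrane *Flt1*, and the isoforms of *Vegfa*, are summed in these gene counts.

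**Figure D1:**
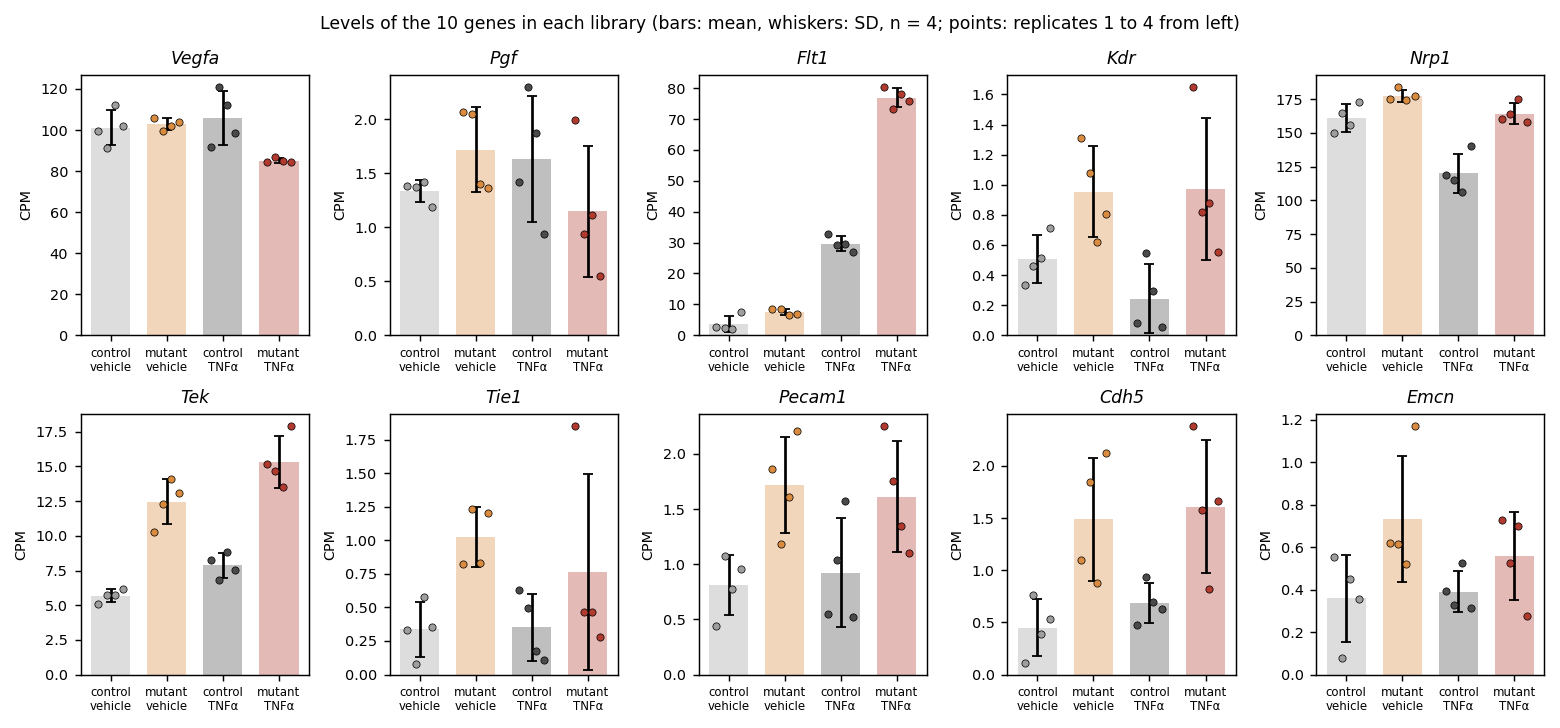
Level of each of the 10 genes in CPM (vertical axis, from 0) in the 4 groups (horizontal axis). Bars are means, whiskers are SD (n = 4) and points are replicates 1 to 4 from left to right. *Flt1* was 1.93 to 7.5 CPM with vehicle in control cells and 73.4 to 80.4 CPM in Notch2 mutant cells with TNFα, and control vehicle replicate 4 is the high point of its group.

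In control cells, TNFα raised *Flt1* and *Tek* and lowered *Nrp1*, and the other 7 genes did not pass the test. Thus 3 of 10 genes were called (adjusted p under 0.05, edgeR quasi-likelihood test), 2 higher and 1 lower, where 44.2% of the 19338 genes tested were called, 23.3% as higher and 20.9% as lower, so that the share of these genes was not above that of all genes. *Flt1* (chr5:147498414-147662826, minus strand, GRCm39), the receptor with the soluble form, was 2.71, 2.21, 1.93 and 7.5 CPM in control vehicle replicates 1 to 4 and 32.9, 29.3, 29.5 and 26.9 CPM in the control TNFα replicates. Every TNFα library was above every vehicle library, and vehicle replicate 4, the library that lay between the treatments, was the highest of its group. The increase was 8.1-fold (log2 3.02 ± 0.38 SE, adjusted p = 0.000798, edgeR). Without vehicle replicate 4 it was 12.8-fold (log2 3.68, adjusted p = 2.53e-16, edgeR), and without the replicate 4 libraries of both treatments it was 13.2-fold (adjusted p = 1.77e-19).

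*Tek* (chr4:94627291-94763224, plus strand), the receptor of the angiopoietins, was 5.08, 5.71, 5.73 and 6.19 CPM in control cells with vehicle and 8.27, 6.8, 8.86 and 7.53 CPM with TNFα. The groups did not overlap, and the increase was 1.39-fold (log2 0.47 ± 0.13 SE, adjusted p = 0.00516, edgeR). *Nrp1* (chr8:129085085-129231082, plus strand), the co-receptor of VEGFA and semaphorins, was 150, 165, 156 and 173 CPM with vehicle and 119, 115, 106 and 140 CPM with TNFα. All TNFα libraries were below all vehicle libraries, with replicate 4 the highest of each group, and the decrease was 1.34-fold (log2 -0.42 ± 0.08 SE, adjusted p = 0.000677, edgeR). Without the replicate 4 libraries of both treatments the log2 change was -0.47 (adjusted p = 7.92e-09, edgeR). *Vegfa* (chr17:46327919-46343309, minus strand) was 99.4, 91.1, 112 and 102 CPM with vehicle and 91.8, 121, 112 and 98.4 CPM with TNFα, and the groups overlapped (log2 0.07 ± 0.09 SE, adjusted p = 0.562, edgeR).

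In Notch2 mutant cells, TNFα raised *Flt1* and lowered *Vegfa*, so that 2 of 10 genes were called, 1 higher and 1 lower, where 44.5% of 19633 genes tested were called, 22.6% as higher and 21.9% as lower. *Flt1* was 8.4, 8.57, 6.43 and 6.81 CPM with vehicle and 80.4, 73.4, 78.1 and 75.9 CPM with TNFα. These groups were far apart with little spread within each, and the increase was 10.4-fold (log2 3.37 ± 0.09 SE, adjusted p = 1.2e-21, edgeR). *Vegfa* was 106, 99.6, 102 and 104 CPM with vehicle and 84.2, 86.8, 84.9 and 84.4 CPM with TNFα. It fell in a narrow band in all 4 TNFα libraries, by 1.21-fold (log2 -0.27 ± 0.06 SE, adjusted p = 0.000497, edgeR). *Tek* was 10.3, 12.3, 14.1 and 13.1 CPM with vehicle and 15.2, 14.7, 13.5 and 17.9 CPM with TNFα, with overlap (log2 0.25 ± 0.11 SE, adjusted p = 0.0696, edgeR). It was called without mutant vehicle replicate 3 (adjusted p = 0.0401) or without mutant TNFα replicate 3 (adjusted p = 0.048). *Nrp1* was 175, 184, 174 and 177 CPM with vehicle and 160, 164, 175 and 158 CPM with TNFα, again with overlap (log2 -0.11 ± 0.06 SE, adjusted p = 0.147, edgeR).

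Per length, *Flt1* moved toward its ligand and co-receptor in level with TNFα. The ratio of *Flt1* to *Vegfa* was between 0.00541 and 0.0232 in the control vehicle libraries and between 0.0764 and 0.113 with TNFα. In mutant cells it was between 0.0199 and 0.0271 with vehicle and between 0.266 and 0.3 with TNFα. *Nrp1* exceeded *Flt1* by 20.7 to 72.6 times in control vehicle and by 18.7 to 24.3 times in mutant vehicle libraries. With TNFα this excess was 3.21 to 4.66 times in control and 1.78 to 2.01 times in mutant cells. In each of these ratios, control vehicle replicate 4 was the library of its group nearest to the TNFα groups.

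**Figure D2:**
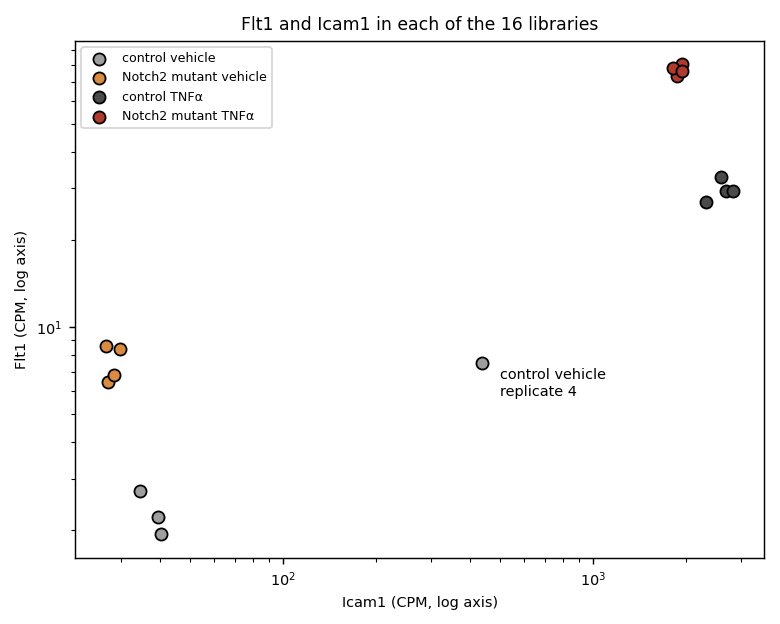
*Flt1* (vertical axis, CPM, log scale) against *Icam1* (horizontal axis, CPM, log scale) in each of the 16 libraries, colored by group. Control vehicle replicate 4, with 439 CPM *Icam1* and 7.5 CPM *Flt1*, lies between the other control vehicle libraries and the TNFα libraries on both axes.

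With vehicle, the Notch2 mutation was accompanied by higher *Tek*, *Tie1*, *Pecam1* and *Cdh5*, and all 10 genes had a positive log2 fold change. *Tek* and *Pecam1* are also expressed by cells other than endothelial ones. The endothelial genes *Kdr* and *Emcn* were not called (adjusted p = 0.144 and 0.153, edgeR). In this comparison 4 of 10 genes were called, all higher in the mutant, where 10.5% of 19432 genes tested were called, 6.19% as higher and 4.35% as lower. When a fold change of at least 1 on the log2 scale was also required, 4 genes were called, where 1.26% of genes tested were. The groups did not overlap, with the mutant higher, for 5 of 10 genes and for 8.63% of genes tested. The median log2 fold change was 1.05 over the 10 genes and -0.002 over all genes tested. In bulk cultures, more cells of a type and more RNA per cell cannot be told apart.

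*Tek*, with the values above, was higher in every mutant vehicle library than in any control vehicle library, by 2.21-fold (log2 1.14 ± 0.12 SE, adjusted p = 3.9e-07, edgeR). *Cdh5* (chr8:104828231-104871143, plus strand), the cadherin of endothelial junctions, was 0.111, 0.761, 0.386 and 0.536 CPM in control and 1.1, 1.85, 0.882 and 2.12 CPM in mutant cells. The groups did not overlap (log2 1.83 ± 0.41 SE, 3.55-fold, adjusted p = 0.00467, edgeR), although the control libraries held only 2 to 10 reads of the gene. *Tie1* (chr4:118328385-118347261, minus strand), the orphan partner of TEK, was 0.332, 0.0761, 0.579 and 0.357 CPM in control and 0.827, 1.23, 0.83 and 1.2 CPM in mutant cells, with no overlap (log2 1.59 ± 0.40 SE, adjusted p = 0.00945, edgeR). *Pecam1* (chr11:106543689-106641454, minus strand), an adhesion molecule of endothelium, platelets and leukocytes, was 0.442, 1.07, 0.772 and 0.952 CPM in control and 1.86, 1.18, 1.61 and 2.21 CPM in mutant cells, again with no overlap (log2 1.13 ± 0.30 SE, adjusted p = 0.0129, edgeR).

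The calls of *Pecam1* and *Tie1* depended on single libraries, whereas *Cdh5* was called in 8 of 8 fits that left out 1 library (adjusted p up to 0.0429). Without mutant vehicle replicate 4, the deepest library, *Pecam1* (log2 0.94, adjusted p = 0.0995) and *Tie1* (log2 1.47, adjusted p = 0.0588) were no longer called, and 2 of 10 genes were. Without control vehicle replicate 1, *Pecam1* was not called either (log2 0.91, adjusted p = 0.0652).

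*Flt1* did not pass the genotype test with vehicle (log2 1.06 ± 0.44 SE, adjusted p = 0.237, edgeR), where control vehicle replicate 4 was within the range of the mutant libraries and the other 3 control libraries were below it. Without that library *Flt1* was 3.24-fold higher in the mutant (log2 1.69 ± 0.17 SE, adjusted p = 2.51e-07, edgeR). *Nrp1* differed by 0.15 ± 0.05 SE on the log2 scale (adjusted p = 0.0845, edgeR), and was called without control vehicle replicate 4 (log2 0.18, adjusted p = 0.0219) or without mutant vehicle replicate 1 (log2 0.15, adjusted p = 0.0297). With control vehicle replicate 4 left out, 6 of 10 genes were thus called. The ligands were not called: *Vegfa* differed by 0.03 (adjusted p = 0.84) and *Pgf* by 0.34 (adjusted p = 0.477) on the log2 scale.

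With TNFα, the mutant cells held more *Flt1*, *Tek*, *Nrp1*, *Kdr* and *Cdh5* than control cells and less *Vegfa*. Here 6 of 10 genes were called, 5 higher and 1 lower, where 9.94% of 19227 genes tested were called, 5.63% as higher and 4.31% as lower. With at least 1 on the log2 scale also required, 3 of 10 genes were called, against 1.41% of genes tested. The groups did not overlap for 4 genes that were higher and 1 that was lower, against 6.84% and 7.97% of genes tested. *Flt1* and *Cdh5* had been listed by the study as higher in the mutant with TNFα, so these shares are not an independent test. *Flt1* was 2.62-fold higher in the mutant, the lowest mutant library being at 73.4 and the highest control library at 32.9 CPM (log2 1.39 ± 0.07 SE, adjusted p = 1.61e-13, edgeR). This log2 value stayed between 1.33 and 1.44 when any 1 of the 8 libraries was left out. *Tek* was 1.91-fold higher (log2 0.93 ± 0.12 SE, adjusted p = 2.65e-06, edgeR) and *Nrp1* 1.38-fold higher (log2 0.47 ± 0.07 SE, adjusted p = 3.5e-05, edgeR), with no overlap of the groups for either. *Vegfa* was 1.23-fold lower in the mutant, with its 4 libraries below all control libraries (log2 -0.30 ± 0.07 SE, adjusted p = 0.00483, edgeR).

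*Kdr* (chr5:76093487-76139884, minus strand), the main signaling receptor of VEGFA, was 0.0788, 0.549, 0.291 and 0.0523 CPM in control and 1.65, 0.819, 0.877 and 0.552 CPM in mutant cells with TNFα. The groups just met without overlap, at 1 to 10 reads per control library and 2 to 25 per mutant library. The lowest mutant value, 0.552 CPM, was 2 reads in replicate 4, the shallowest library. The log2 fold change was 2.03 ± 0.53 SE (adjusted p = 0.0106, edgeR). Without mutant TNFα replicate 1, *Kdr* was not called (log2 1.65, adjusted p = 0.102). *Cdh5* was 0.473, 0.933, 0.7 and 0.627 CPM in control and 2.38, 1.58, 0.819 and 1.66 CPM in mutant cells, with overlap, and passed the test narrowly (log2 1.19 ± 0.36 SE, adjusted p = 0.0311, edgeR). It lost the call in 5 of 8 fits that left out 1 library, with adjusted p up to 0.222 without mutant TNFα replicate 1. *Pecam1* was not called (log2 0.87 ± 0.34 SE, adjusted p = 0.122, edgeR), but was without control TNFα replicate 3 (log2 1.23, adjusted p = 0.0357).

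**Figure D3:**
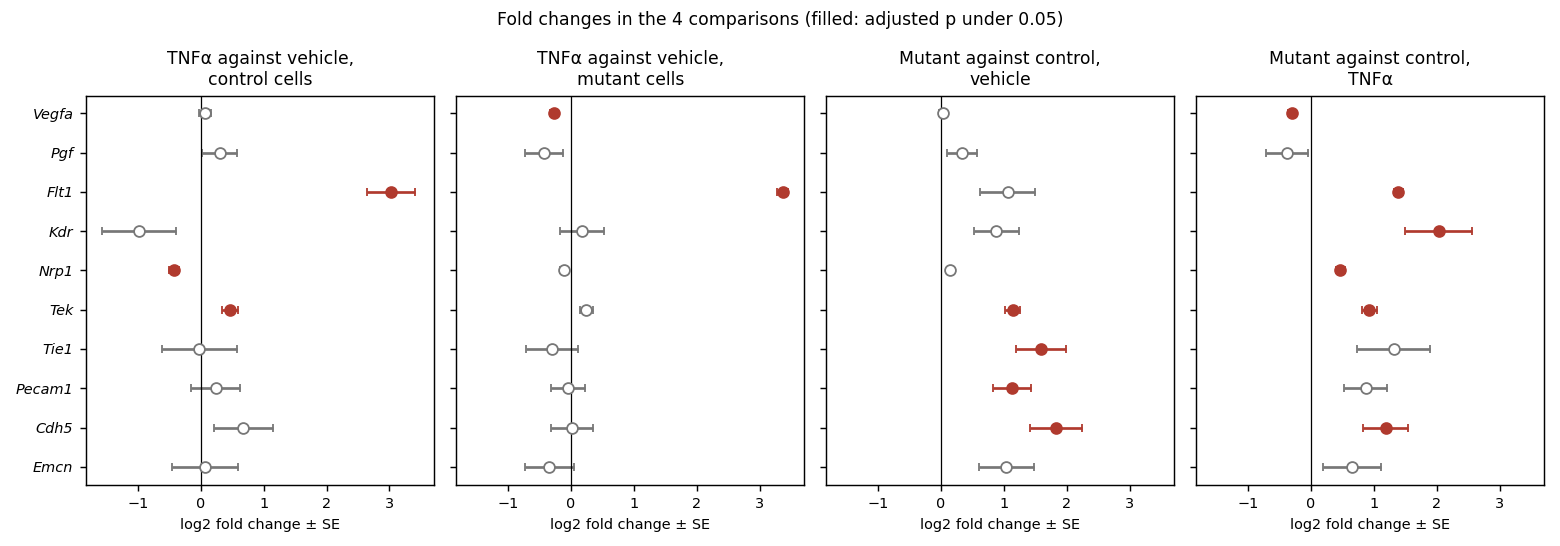
Log2 fold change (horizontal axis) with its SE for each of the 10 genes in the 4 comparisons of groups. Filled points had an adjusted p under 0.05. The TNFα panels are led by *Flt1* at 3.02 and 3.37, and in the panel of mutant against control with vehicle all 10 points are to the right of 0.

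The remaining comparisons rest on few reads, from 1 to 59 per library for the genes below, which limits the differences that could be detected. *Pgf* (chr12:85213409-85224564, minus strand), the ligand of FLT1, ranged from 1.19 to 1.42 CPM in control vehicle, 1.36 to 2.07 in mutant vehicle, 0.941 to 2.3 in control TNFα and 0.552 to 1.99 CPM in mutant TNFα libraries, and was called in 0 of the 4 comparisons. *Emcn* (chr3:137046794-137138999, plus strand), the endothelial sialomucin, was between 0.0761 and 1.17 CPM across the 16 libraries and was also called in 0 comparisons. *Kdr* with vehicle was 0.332, 0.457, 0.515 and 0.714 CPM in control and 1.31, 1.08, 0.622 and 0.805 CPM in mutant cells, with overlap (log2 0.88 ± 0.36 SE, adjusted p = 0.144, edgeR). In control cells the difference of *Kdr* with TNFα was -0.98 ± 0.59 SE on the log2 scale (adjusted p = 0.197, edgeR; -0.39 without the replicate 4 libraries of both treatments), and it was called without control TNFα replicate 2 (log2 -1.76, adjusted p = 0.0434). *Tie1* with TNFα was 0.63, 0.494, 0.175 and 0.105 CPM in control and 1.85, 0.468, 0.468 and 0.276 CPM in mutant cells, where replicate 1 stood apart. Without that library, *Tie1* was lower with TNFα than with vehicle in mutant cells (log2 -1.22, adjusted p = 0.0207, edgeR), and with all libraries it was not called (log2 -0.30, adjusted p = 0.596).

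The test of whether the response to TNFα differed between genotypes called 0 of 10 genes (edgeR, and 0 with DESeq2), where 0.474% of 21321 genes tested were called. At an unadjusted p under 0.05 it reached 2 genes, *Vegfa* (log2 -0.34, adjusted p = 0.135) and *Nrp1* (log2 0.32, adjusted p = 0.149), where 8.71% of genes tested did. *Nrp1* was called without control TNFα replicate 4 (log2 0.40, adjusted p = 0.0138), and *Vegfa* without control TNFα replicate 1 (log2 -0.40, adjusted p = 0.0494). For *Flt1* the difference of the responses was 0.36 ± 0.38 SE on the log2 scale (adjusted p = 0.858) and -0.32 without control vehicle replicate 4 (adjusted p = 0.655). A larger *Flt1* response in mutant cells was therefore not shown, although its level with TNFα was higher in them.

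Other ligands and receptors of the same pathways moved with TNFα in both directions. Of 16 VEGF and angiopoietin partners tested in control cells, 7 rose and 4 fell, and in mutant cells 8 rose and 4 fell, where 44.2% and 44.5% of all genes tested were called. *Angptl4*, a secreted lipoprotein lipase inhibitor with effects on vessels, rose from 54.3 ± 48.7 to 685 ± 59.4 CPM in control and from 37.6 ± 3.86 to 688 ± 8.13 CPM in mutant cells (SD, n = 4; adjusted p = 0.00336 and 1.46e-25, edgeR). Without control vehicle replicate 4 its rise in control cells was 22.9-fold in place of 12.6-fold. *Pdgfb*, which recruits pericytes, rose by 2.08 (2.67 without control vehicle replicate 4) and 2.01 on the log2 scale, and *Vegfc*, the lymphangiogenic ligand, by 1.44 and 1.48. *Nrp2*, the co-receptor related to *Nrp1*, rose by 1.31 in control and 1.70 in mutant cells on the log2 scale, where *Nrp1* had log2 changes of -0.42 and -0.11. The guidance ligand *Sema3a*, which binds NRP1, had log2 changes of -1.04 and -1.45 with TNFα.

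Between genotypes, 3 of the 16 partners were higher and 3 lower in the mutant with vehicle, where 10.5% of all genes tested were called, and 5 were higher and 3 lower with TNFα, where 9.94% were (3 higher without control TNFα replicate 3 or without mutant TNFα replicate 3). *Ptprb*, the phosphatase that acts on TEK, was 0.27 ± 0.19 CPM in control and 1.14 ± 0.307 CPM in mutant cells with vehicle (log2 1.99, adjusted p = 0.00354, edgeR). *Plxnd1*, a semaphorin receptor, was higher in the mutant by 0.68 with vehicle and 0.33 with TNFα on the log2 scale, and *Sema3a* and *Sema3c* had log2 differences of -0.48 and -0.71 with vehicle and -0.89 and -0.48 with TNFα. The medians of the list, 0.06 and 0.11, were close to those of all genes tested, -0.002 and -0.012.

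Of the genes that link VEGF to Notch, 10 could be tested with vehicle. In the mutant 4 were higher and 0 lower, where 6.19% of all genes tested were higher. The 4 were *Heyl*, *Jag1* (log2 0.79), *Hey1* (log2 0.59) and the netrin receptor gene *Unc5b* (log2 0.53). With TNFα, 2 of 12 were higher, *Heyl* and *Jag1* (log2 0.63), and 1 was lower, *Esm1* (log2 -0.49), a secreted product of tip cells (2 lower without control TNFα replicate 2, 3 or 4). Of all genes tested, 5.63% were higher and 4.31% lower. With TNFα, 3 of 10 rose and 4 fell in control cells and 4 of 12 rose and 5 fell in mutant cells, again beside 44.2% and 44.5% of all genes called. *Apln*, the ligand of the apelin receptor, fell from 20.8 ± 1.35 to 3.18 ± 1.97 CPM in control and from 22.7 ± 1.25 to 1.79 ± 0.439 CPM in mutant cells.

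Of 10 genes of the hypoxia pathway, which drives *Vegfa* transcription, 3 rose and 4 fell with TNFα in control cells and 2 rose and 4 fell in mutant cells (1 rose without mutant vehicle replicate 3), when 44.2% and 44.5% of all genes tested were called. *Egln3*, a prolyl hydroxylase that marks HIF for degradation, rose by 2.40 and 3.19 on the log2 scale, whereas *Egln1* had changes of -0.59 and -0.68 and *Epas1*, encoding HIF-2α, of -0.50 and -0.31. Between genotypes, 2 were higher and 1 lower with vehicle (0 higher without control vehicle replicate 1, and 1 without control vehicle replicate 3 or mutant vehicle replicate 2 or 4), and 1 was higher and 1 lower with TNFα (0 lower without mutant TNFα replicate 3), when 10.5% and 9.94% of all genes tested were called.

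Of 8 genes encoding inhibitors of vessel growth in cartilage, 2 rose and 5 fell with TNFα in each genotype, and of all genes tested 44.2% and 44.5% were called. *Thbs1*, encoding thrombospondin 1, was 23200 ± 997 CPM with vehicle and 7030 ± 2330 CPM with TNFα in control cells, and had log2 changes of -1.72 and -2.0 in control and mutant cells. *Timp3*, which also blocks VEGF binding to KDR, had log2 changes of -1.79 and -1.96. In the mutant, 5 genes were higher and 2 lower with vehicle, and 4 higher and 2 lower with TNFα (1 lower without mutant TNFα replicate 1, 3 or 4). Of all genes tested, 10.5% were called with vehicle and 9.94% with TNFα. *Tnmd* and *Col18a1* (endostatin) were higher by 1.12 and 0.95 with vehicle and by 0.97 and 1.01 with TNFα, whereas *Cnmd*, encoding chondromodulin and also counted among the chondrocyte markers, had log2 differences of -0.86 and -1.03.

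The label of the cultures was checked against markers of the cell types they could hold. The 13 chondrocyte markers summed to 49700 to 53500 CPM in control vehicle libraries, 31100 to 36000 in mutant vehicle, 35800 to 42500 in control TNFα and 19600 to 22100 CPM in mutant TNFα libraries, and 13 of 13 were lower in the mutant with vehicle and with TNFα. Of all genes tested, 4.35% were lower in the mutant with vehicle and 4.31% with TNFα. The study had reported *Sox9*, *Acan* and *Col2a1* as decreased in mutant cells. It also listed *Matn1*, *Hapln1*, *Cnmd*, *Snorc* and *Ucma* as lower in the mutant with TNFα. The list is therefore no independent check of the difference between genotypes. TNFα lowered 11 of these 13 markers in each genotype, where 20.9% of all genes tested fell in control and 21.9% in mutant cells. Of 9 markers of hypertrophic chondrocytes, the cells that secrete VEGFA, 3 were higher and 2 lower in the mutant with vehicle, and 1 was higher and 2 lower with TNFα. Over all genes tested, 10.5% and 9.94% were called in the same comparisons. The count of 3 was 1 without control vehicle replicate 2 or 4 or mutant vehicle replicate 4, and the counts with TNFα were 0 to 2 higher and 1 to 2 lower when 1 library was left out.

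*Tek*, *Tie1*, *Pecam1* and *Cdh5* were higher in mutant cells with vehicle. Beside them, 7 of 24 other endothelial markers were higher and 2 lower in the mutant, where 6.19% and 4.35% of all genes tested were. Among the 7 were *S1pr1* (log2 1.08, adjusted p = 8.91e-07, edgeR), *Cldn5* (log2 2.43, adjusted p = 0.00702) and *Sox18* (log2 1.35, adjusted p = 0.0237), while *Erg* (log2 -0.39) and *Cd34* (log2 -0.42) were lower. *Sox17* was also called as higher, with 0 CPM in all control vehicle libraries and 0.172 ± 0.124 CPM in mutant cells. The count of 7 was 2 to 6 when any 1 library was left out. It was 4 without control vehicle replicate 1 or 2 and 2 without mutant vehicle replicate 4. Without control vehicle replicate 4 it was 3, and *Sox17* and *Sox18* were among those lost (adjusted p = 0.0525 and 0.0755, edgeR). With TNFα, 2 of 23 tested were higher and 1 was lower, where 5.63% and 4.31% of all genes tested were. The 2 were *S1pr1* (log2 0.97) and *Ramp2* (log2 0.41, with adjusted p = 0.0868 without control TNFα replicate 4, edgeR). The count of 2 was 1 without control TNFα replicate 4 or mutant TNFα replicate 1 or 2. The summed level of these markers was 210 to 222 and 203 to 224 CPM with vehicle, and 272 to 303 and 282 to 291 CPM with TNFα in control and mutant cells. *Eng* was the largest part of this sum in every group, at 130 and 121 CPM with vehicle and 133 and 131 CPM with TNFα, and *Cd34* came next. Changes of the scarcer markers are hardly seen in this sum, and 12 of the 24 averaged under 1 CPM over the 16 libraries.

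Macrophage markers were mostly higher in the mutant. Of 16, 11 were higher and 0 lower in the mutant with vehicle, and 13 were higher and 0 lower with TNFα. Over all genes tested, 6.19% and 5.63% were higher. Several of these genes, among them *Adgre1*, *Csf1r*, *C1qa*, *Marco* and *Tyrobp*, were listed by the study as higher in the mutant with TNFα. The list was chosen with earlier results of these data known, so these counts are not an independent test. The list medians were 1.11 and 1.26 on the log2 scale. The summed level was 75.5 to 81.9 CPM in control vehicle, 141 to 166 in mutant vehicle, 90.4 to 105 in control TNFα and 190 to 218 CPM in mutant TNFα libraries, and none of these markers was at 0 throughout. *C1qa* (log2 1.63), *C1qc* (log2 1.59), *Tyrobp* (log2 1.53) and *Marco* (log2 1.93) were higher with vehicle, the last of which was not called without control vehicle replicate 4 (adjusted p = 0.0807). With TNFα, 5 rose and 1 fell in control cells, and 10 rose and 1 fell in mutant cells. In these comparisons 44.2% and 44.5% of all genes tested were called. The part of macrophages in the levels of *Flt1*, *Tek* and *Pecam1* was not tested.

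Of 9 mural cell markers, 6 were higher and 0 lower in the mutant with vehicle, where 6.19% of all genes tested were higher. With TNFα, 4 of 8 tested markers were higher and 0 lower, where 5.63% of all genes tested were higher. In place of 0, 1 was lower without control vehicle replicate 3, and 1 without control TNFα replicate 1, 2 or 3. The higher markers included *Notch3* (log2 1.37 and 0.87), *Acta2* (log2 0.94 and 1.01) and *Pdgfrb* (log2 0.38 and 0.53). The pericyte marker *Rgs5* (log2 -0.25 and -0.39) and *Cspg4* (log2 -0.19 and -0.18) had negative differences and were not called. In control vehicle cultures *Acta2* was 1430 CPM and *Pdgfrb* 428 CPM, where *Rgs5* was 4.18 CPM. Which cells held these transcripts was not tested. With TNFα, 2 rose and 5 fell in control cells (3 fell without the replicate 4 libraries of both treatments), and 2 rose and 6 fell in mutant cells. Of all genes tested, 44.2% and 44.5% were called. Of the 5 markers of lymphatic endothelium, 4 could be tested and 0 were called between genotypes, and TNFα raised 1 in each genotype, *Flt4* (log2 0.62) in control and *Prox1* (log2 1.19) in mutant cells. The first of these calls was lost without control vehicle replicate 1 or 2 or control TNFα replicate 1, 3 or 4, and without control vehicle replicate 4 there were 2 calls. Without mutant vehicle replicate 2 there were 2 in mutant cells. Of 8 markers of platelets and other leukocytes, 3 could be tested and the defining T and NK cell genes *Cd3e* and *Ncr1* were at 0 in every library. The 1 call was *Pf4*, higher in the mutant with TNFα (log2 1.58, adjusted p = 0.0425), which was lost when any of 6 of the 8 libraries was left out.

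TNFα raised 8 of 21 endothelial markers tested in control cells and 6 of 24 in mutant cells, and lowered 1 in each (2 in mutant cells without mutant TNFα replicate 3). Of all genes tested, 23.3% and 22.6% rose and 20.9% and 21.9% fell. The share of these markers that rose was above that of all genes in control cells and near it in mutant cells. The share that fell was below it in both, so that the share called in mutant cells was below that of all genes. *Ecscr* rose by 2.45 and 2.47 on the log2 scale, *Cd34* by 1.44 and 1.51, and *Selp*, encoding the leukocyte adhesion molecule P-selectin, by 2.04 (2.69 without control vehicle replicate 4) and 1.37. *Sele*, encoding E-selectin, rose from 0.0788 ± 0.0569 to 0.5 ± 0.211 CPM in control cells (log2 2.55, adjusted p = 0.00555, edgeR). The fall was that of *Erg*, an endothelial transcription factor also present in articular chondrocytes, with log2 changes of -0.57 and -0.62.

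**Figure D4:**
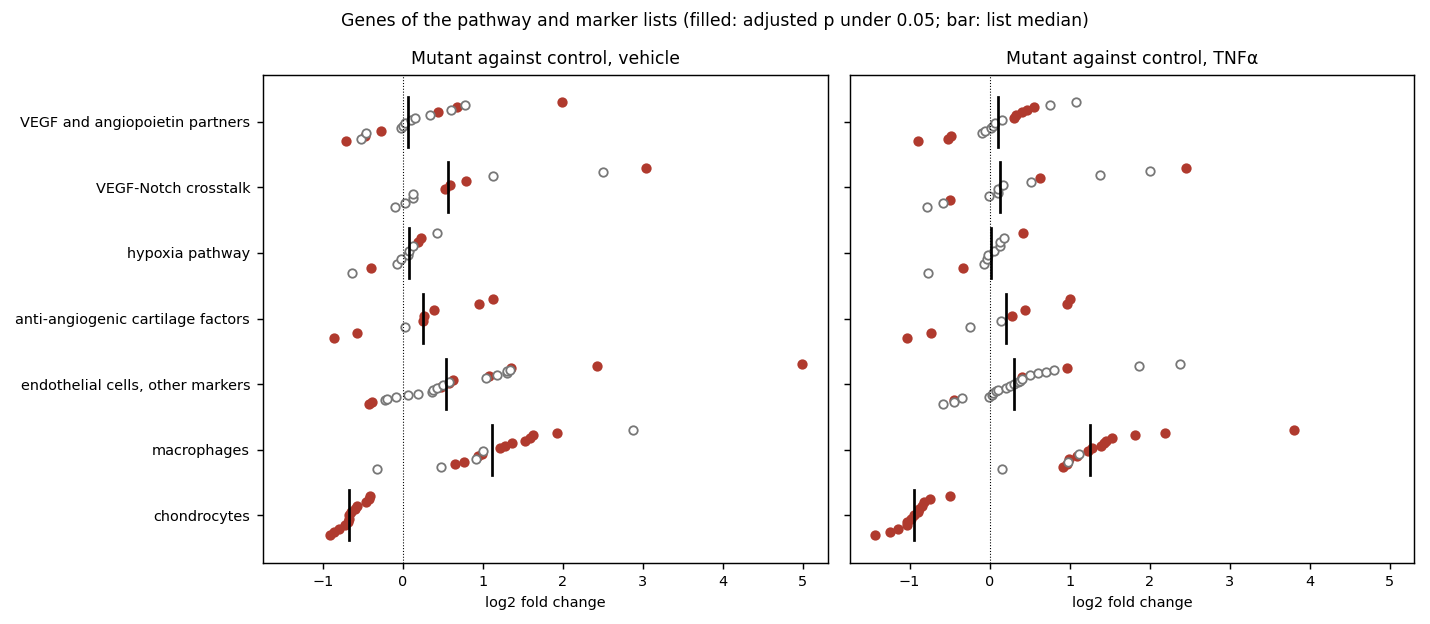
Log2 fold change of mutant against control cells (horizontal axis) for the genes of 4 pathway lists and 3 marker lists (rows), with vehicle (left) and TNFα (right). Filled points had an adjusted p under 0.05 and bars are list medians. The macrophage list, with medians of 1.11 and 1.26, and the chondrocyte list, with -0.67 and -0.95, lie on opposite sides of 0.

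The genes whose levels followed each member most closely were ranked by the Pearson correlation of log2(CPM + 0.5) over the 16 libraries among 13415 genes, as a description with no test, since the 4 groups and their treatments are shared by all genes. For *Flt1* these were *Cybb*, a phagocyte oxidase subunit (r = 0.995), the sphingosine phosphate receptor gene *S1pr3* (r = 0.993) and *Olfml2a* (r = 0.992). For *Tek* they were *Tyrobp*, a macrophage marker (r = 0.966), *Postn* (r = 0.962) and *Selenop* (r = 0.958). *Nrp1* was followed by *Dock1* (r = 0.982), *Flnc* (r = 0.959) and *Bicc1* (r = 0.949). *Cdh5* was most like *Stab1*, a scavenger receptor gene (r = 0.822), *Heyl* (r = 0.809) and *Tek* (r = 0.809), and *Pecam1* most like *Pi16* (r = 0.813), *Folr2* (r = 0.812) and *Tlnrd1* (r = 0.801). The closest genes were less alike for the ligands, with *Gm44732* at 0.826 for *Vegfa* and *Czib* at 0.784 for *Pgf*.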

How the data were processed

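RNA-Seq libraries (stranded mRNA, paired ends, one pool) were made from 16 cultures. Per the labels, the deposited values are raw read counts per gene that the authors made with HTSeq after alignment with HISAT2 (version 2.1.0 and GRCm38 in the submitters' processing notes, whereas the methods of the study name a later version and GRCm39). The deposited counts are not normalized, although the authors normalized counts for their own tests with DESeq2, and the strand setting is not given in the sources used here. Rows that name no gene held 8.81 to 12.1% of each file and were left out. The 665 identifiers without a GENCODE M39 symbol held 0.0182% of counts. Groups and replicate numbers came from the sample titles, which call the replicates biological; p-values measure the spread between these cultures of pooled mice. Replicates differed by more than counting error (chi-square per degree of freedom 2.14 to 16).

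Counts were tested with edgeR 4.0.16 in R 4.3.3 (trimmed mean of M values, robust quasi-likelihood) over all genes with at least 10 counts summed over the libraries compared, and called at a Benjamini-Hochberg adjusted p under 0.05 over all genes tested. The difference of the responses was tested on all 16 libraries. SE is the log2 fold change divided by the square root of F. CPM used 1 scaling over the 16 libraries, and levels per length used the merged exon length of GENCODE M39 (GRCm39). Promoter windows are RefSeq on GRCm38.p6, and no coordinates were converted. Reads of overlapping antisense transcripts were not separated, and those listed in the files had 0 counts. The test was tried on simulated counts.

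The 10 genes and the gene lists (VEGF and angiopoietin partners, links of VEGF and Notch, hypoxia, inhibitors of vessel growth, and markers of endothelial, lymphatic, mural, macrophage, leukocyte, chondrocyte and hypertrophic cells) were chosen with earlier results of these data known. Named were the 10 genes, *Notch2* and *Heyl*, up to 4 called genes of each list with the largest log2 fold change in a comparison, and the 3 genes most like each member of at least 1 CPM. *Icam1*, *Rgs5*, *Cspg4*, list genes that the study had reported, and genes that make up a count of 5 or fewer, were named after their values were seen. Alternatives were DESeq2 1.42.0, its scaling, other filters and thresholds, a fit to all libraries, a replicate block, and leaving out libraries.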

Additional observations from a re-analysis of the deposited data

Results flagged for a closer look

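Of 40 sets of 4 libraries (10 genes in 4 groups), 3 held a library far from the other 3 by the gap to the nearest library over the range of the group, when chance gives about 1 in 20 sets. *Flt1* was 7.5 CPM in control vehicle replicate 4, where the nearest other library was at 2.71 CPM. The gap was 0.86 of the range, above Dixon's critical value for 4 libraries. *Icam1* was 439 CPM in the same library. *Emcn* was 1.17 CPM in Notch2 mutant vehicle replicate 4, the deepest library, where the nearest other library was at 0.62 CPM. *Tie1* was 1.85 CPM in Notch2 mutant TNFα replicate 1, where the nearest other library was at 0.468 CPM. In that library *Kdr* (1.65 CPM), *Pecam1* (2.25 CPM) and *Cdh5* (2.38 CPM) were also the highest of their group.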

How the results depend on the processing

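Of the values recomputed under each alternative, 729 kept their direction and side of the threshold or their count, 13 newly passed, 11 no longer passed and 27 changed sign; the cause was not tested. Requiring at least 1 on the log2 scale as well gave 1 call for TNFα in control cells in place of 3, 1 for TNFα in mutant cells in place of 2, and 3 between genotypes with TNFα in place of 6. The interaction called 1 gene with no filter beyond 1 count (*Vegfa*) and 1 without the replicate 4 libraries of both control groups (*Nrp1*), in place of 0. With each library left out in turn, the counts were 3 to 4 with TNFα in control cells, 2 to 3 in mutant cells, 2 to 6 between genotypes with vehicle, 4 to 6 between them with TNFα and 0 to 1 for the interaction.

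Sign changes were confined to log2 values that were not called. *Tie1* with TNFα in control cells was 0.32 without the replicate 4 libraries and 0.003 with DESeq2, and the *Flt1* interaction was -0.35 without the replicate 4 libraries. With 1 library left out, *Pecam1*, *Emcn* and *Tie1* with TNFα in control cells ranged from -0.15 to 0.44, -0.22 to 0.34 and -0.40 to 0.33. *Kdr*, *Pecam1*, *Cdh5* and *Emcn* with TNFα in mutant cells ranged from -0.19 to 0.34, -0.23 to 0.15, -0.30 to 0.30 and -0.48 to 0.07. *Vegfa* with vehicle ranged from -0.02 to 0.09, and the interactions of *Flt1*, *Pecam1*, *Emcn* and *Tie1* from -0.32 to 0.56, -0.49 to 0.11, -0.69 to 0.01 and -1.17 to 0.11.

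The replicate numbers did not pair the cultures, since deviations of same-numbered libraries correlated between -0.171 and 0.129, with 1 of 24 pairs over 0.1, and 2 libraries correlated best with their own number. With the replicate number as a block, 3, 3, 4, 5 and 0 genes were called in the order above, in place of 3, 2, 4, 6 and 0, *Tek* passing with TNFα in mutant cells (adjusted p = 0.031) and *Cdh5* not passing between genotypes with TNFα (adjusted p = 0.0602), and *Pecam1* with TNFα in mutant cells was 0.02.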
